A study of Saccharomyces cerevisiae with 4 samples.

Results

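The genes described here are the 5 peroxiredoxin genes of Saccharomyces cerevisiae and the sulfiredoxin gene, measured in cultures exposed to b-lapachone against cultures exposed to its vehicle. They were taken by name as a gene family: TSA1 (YML028W), TSA2 (YDR453C), AHP1 (YLR109W), PRX1 (YBL064C), DOT5 (YIL010W) and SRX1 (YKL086W). All 6 had a row among the 6211 open reading frames of the array, and all 6 had a value on each of the 4 arrays, so no filter on missing values removed a member. The family was selected on results of the same comparison, the mean log2 ratios of its genes over the 4 arrays, so its values against vehicle are given as a description.

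Total RNA came from log-phase cultures of BY4741, a haploid laboratory strain (MATa) with the alleles his3Δ1, leu2Δ0, met15Δ0 and ura3Δ0 and an intact LYS2. Both kinds of culture were of this strain, grown in YPD at 28 °C to an absorbance of 0.6. The treated cultures then had 10 µg/ml b-lapachone in DMSO for 1 h, and the vehicle cultures had 1% DMSO for 1 h. On each array RNA from both kinds of culture was hybridised together in different dyes, which gave 1 group of 4 biological replicates. Treated RNA was in Cy5 on replicates 2 and 4 and in Cy3 on replicates 1 and 3. The series' title places the comparison among responses to a DNA-damaging compound. A ratio gives no level, so neither the strain's deleted markers nor its mating type could be checked from these values, and levels of different genes cannot be compared.

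Peroxiredoxins are thiol peroxidases: a reactive cysteine takes the oxygen from hydrogen peroxide or an organic hydroperoxide and is then reduced again, in the cytosol mostly by thioredoxin, which thioredoxin reductase recharges with electrons from NADPH. When peroxide is plentiful, the cysteine of Tsa1 and Tsa2 can be overoxidised to a sulfinic acid, which Srx1 reverses at the cost of ATP. In yeast the family is spread over compartments, with Tsa1, Tsa2 and Ahp1 in the cytosol, Prx1 in mitochondria and Dot5 in the nucleus. b-Lapachone, a naphthoquinone, is reduced by enzymes of the cell and oxidised again by oxygen, a cycle that yields superoxide and hydrogen peroxide.

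The deposited values were read as log2 ratios of b-lapachone over vehicle, a direction that is likely rather than settled. Its basis is that the labels enter vehicle RNA as the first channel and treated RNA as the second on every array, whatever the dye. Neither the direction nor the base of the logarithm is stated, so every fold below assumes base 2, and the opposite direction would exchange higher and lower throughout. All 6 pairs of arrays correlated above 0 over genes, from 0.0966 for replicates 1 and 2 to 0.485 for replicates 1 and 3. Replicates 1 and 3 had treated RNA in the same dye, and replicates 1 and 2 did not. The other pairs did not all follow the dye: replicates 3 and 4, in different dyes, correlated at 0.444, and replicates 2 and 4, in the same dye, at 0.393. Such correlations cannot decide the reading, because a dye bias shared by all arrays would also raise them. That all columns run in the direction of treatment is therefore an assumption. In a table of Cy5 over Cy3 on every array, the means below would hold dye bias and the dye differences given further on would hold the treatment effect.

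SRX1, TSA2, PRX1 and TSA1 were called higher in b-lapachone cultures in a fit over all 5112 genes measured on 3 or 4 arrays (limma, Benjamini-Hochberg adjusted p under 0.05), and AHP1 and DOT5 were not called. Of all genes tested, 2.07% were called higher, 0.959% lower and 3.03% in either direction. Because the family was proposed from this comparison, nothing is read from the count of 4 of 6 against those shares. The members' mean log2 ratios had a median of 0.73, against -0.01 over all genes tested. Of the 24 values of the family, 23 lay above 0. In RNA from whole cultures, a change in every cell and a larger change in some cells cannot be told apart.

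SRX1, the sulfiredoxin gene, had log2 ratios of 1.12, 1.60, 1.14 and 1.54 on replicates 1, 2, 3 and 4. It was the highest member on every array. The mean was 1.35 ± 0.25 (SD, n = 4), or 2.55-fold higher in b-lapachone cultures than in vehicle cultures, and it was the only member with a mean of at least 1. Among all genes tested, that mean stood at rank 4 from the top. On single arrays SRX1 was at rank 40 of 5176 measured genes on replicate 1, 17 of 5534 on replicate 2, 8 of 5179 on replicate 3 and 6 of 4819 on replicate 4. Its lowest standing came on the array with the widest spread of ratios, since the SD over genes was 0.379 on replicate 1 and between 0.272 and 0.308 on the others.

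The substrates of sulfiredoxin, Tsa1 and Tsa2, are close paralogues that act as cytosolic thioredoxin peroxidases. Tsa1 is the main one in growing cells and also serves as a chaperone. TSA2 had log2 ratios of 0.63, 1.18, 0.78 and 1.13 on replicates 1, 2, 3 and 4, a mean of 0.93 ± 0.27 (SD, n = 4) or 1.91-fold, at rank 12 of all genes tested. TSA1 had 0.37, 0.96, 0.45 and 0.53 on the same arrays, a mean of 0.58 ± 0.26 (SD, n = 4) or 1.49-fold, at rank 63. TSA1 was high on replicate 2, where its value was nearly that of the mitochondrial PRX1, and low on replicate 1. Its call was lost when replicate 2, 3 or 4 was left out (means of 0.45, 0.62 and 0.59) and kept without replicate 1 (0.64). TSA2 was above TSA1 on all 4 arrays, by 0.26, 0.22, 0.34 and 0.61 on replicates 1 to 4. The ranges of the paralogues overlapped, and as their coding sequences are alike, how far a probe for one also binds the transcript of the other was not tested.

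PRX1 encodes the mitochondrial peroxiredoxin, which works with a single catalytic cysteine. Its log2 ratios were 1.08, 1.04, 0.68 and 0.73 on replicates 1, 2, 3 and 4, high on the first pair of arrays and lower on the other. The mean was 0.88 ± 0.21 (SD, n = 4) or 1.84-fold, at rank 17 of all genes tested. Of the members, PRX1 kept the steadiest place among the genes of an array: between 98.6% and 99.1% of measured genes lay below it on each. SRX1 was nearly as steady, with that share running from 99.2% to 99.9%. For TSA2 it ran from 94.9% to 99.6%, and for TSA1 from 85.3% to 98.8%. Such shares can change little near the top of an array. By SD the ratios of PRX1 were near the middle, as 51.8% of genes tested had a smaller SD.

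The remaining members encode Ahp1, a cytosolic peroxiredoxin that favours organic hydroperoxides, and Dot5, the nuclear peroxiredoxin. AHP1 had log2 ratios of 0.49, 0.48, 0.36 and 0.01 on replicates 1, 2, 3 and 4, a mean of 0.33 ± 0.23 (SD, n = 4) or 1.26-fold. On 3 arrays AHP1 stood above at least 90.5% of measured genes, and on replicate 4 it stood in the middle, above 50.4% of them. Without replicate 4 its mean was 0.44, and it was not called there either. DOT5 had 0.20, -0.26, 0.05 and 0.04, a mean of 0.01 ± 0.20 (SD, n = 4), the only member with a value below 0. The sign of the DOT5 mean changed with small changes in processing: it was -0.01 with scaled or with quantile-normalized arrays.

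**Figure D1:**
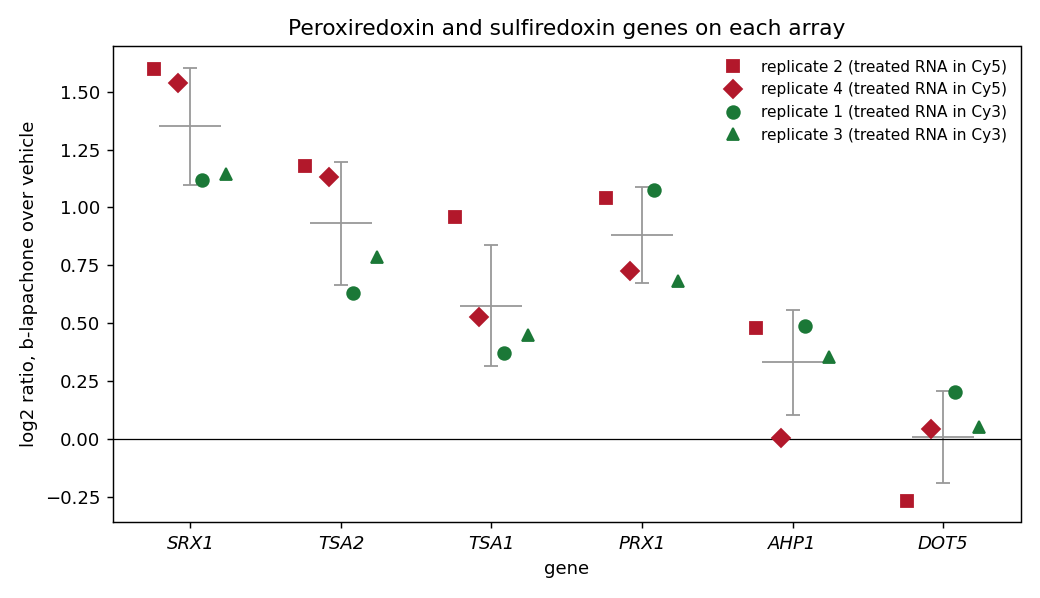
Log2 ratio of b-lapachone over vehicle (vertical axis) for each of the 6 genes (horizontal axis); each symbol is 1 array, red where treated RNA was in Cy5 and green where it was in Cy3, and the grey bars are the mean ± SD of the 4 arrays. SRX1 lies between 1.12 and 1.60, above every value of PRX1, TSA1, AHP1 and DOT5, while DOT5 lies on both sides of 0.

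The order of the members was nearly the same from array to array. SRX1 came first on all 4. On replicates 2, 3 and 4 it was followed by TSA2, PRX1 and TSA1 in that order, while on replicate 1 PRX1 stood above TSA2 and AHP1 above TSA1. DOT5 was last on replicates 1, 2 and 3, and AHP1 was last on replicate 4. In the order of means, the ranges of neighbours over the 4 arrays overlapped. The range of SRX1 (1.12 to 1.60) met that of TSA2 (0.63 to 1.18). TSA2 with PRX1, PRX1 with TSA1, TSA1 with AHP1, and AHP1 with DOT5 also overlapped. Of the members further apart in the order, TSA2 and TSA1 overlapped, and the other pairs did not, such as SRX1 with PRX1, or PRX1 with AHP1 (0.01 to 0.49). Compared within arrays, SRX1 was above TSA2 and PRX1 above TSA1 on all 4, while each other pair of neighbours kept its order on 3.

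SRX1 and TSA2 kept a nearly fixed distance from each other. SRX1 minus TSA2 was 0.49, 0.42, 0.36 and 0.40 on replicates 1, 2, 3 and 4, a mean difference of 0.42 ± 0.05 (SD, n = 4). Each of these genes alone had an SD of 0.25 to 0.27, which is wider than the SD of their difference, both being high on replicates 2 and 4 and lower on replicates 1 and 3. TSA2 minus PRX1, for comparison, was -0.45, 0.14, 0.10 and 0.41, with a mean of 0.05 ± 0.36 (SD, n = 4). Of the 15 pairs within the family, SRX1 with TSA2 had the smallest SD of the difference. The pair was picked out after these values were seen, and no test was made of it.

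The arrays on which SRX1 and TSA2 were high are those with treated RNA in Cy5. The dye difference, which runs across the mean and did not enter the choice of the family, was therefore tested for each gene with a dye coefficient over all 5112 genes. SRX1 averaged 1.57 on Cy5-treated arrays and 1.13 on Cy3-treated arrays, a difference of 0.44 ± 0.18 (SE), and TSA2 averaged 1.15 and 0.71, a difference of 0.45 ± 0.19 (SE). Neither passed after adjustment (limma, Benjamini-Hochberg adjusted p = 0.481 for SRX1 and 0.475 for TSA2). TSA1 differed by 0.33 ± 0.21 (SE), with 0.74 on Cy5-treated arrays and 0.41 on Cy3-treated arrays (limma, adjusted p = 0.618).

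For PRX1 the orientations gave the same mean, 0.88 on Cy5-treated and on Cy3-treated arrays, with a difference of 0.00 ± 0.21 (SE). AHP1 and DOT5 lay the other way, at -0.18 ± 0.21 and -0.24 ± 0.20 (SE). None of the 6 genes was called for a dye difference (0 by limma), against 0.0391% of all genes, and 2 of them, SRX1 and TSA2, had an unadjusted p under 0.05, against 9.76% of all genes. With 2 arrays in each orientation the standard error of a dye difference was 0.201 for the median gene, which limits how small a difference can be detected. SRX1, TSA2, TSA1 and PRX1 were above 0 on every array of both orientations. All 4 were still called with a dye coefficient in the fit, where 223 genes were called in all, or 4.36% of those tested. That coefficient leaves their means unchanged by construction, and the family was selected on those means, so nothing is read from these calls.

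**Figure D2:**
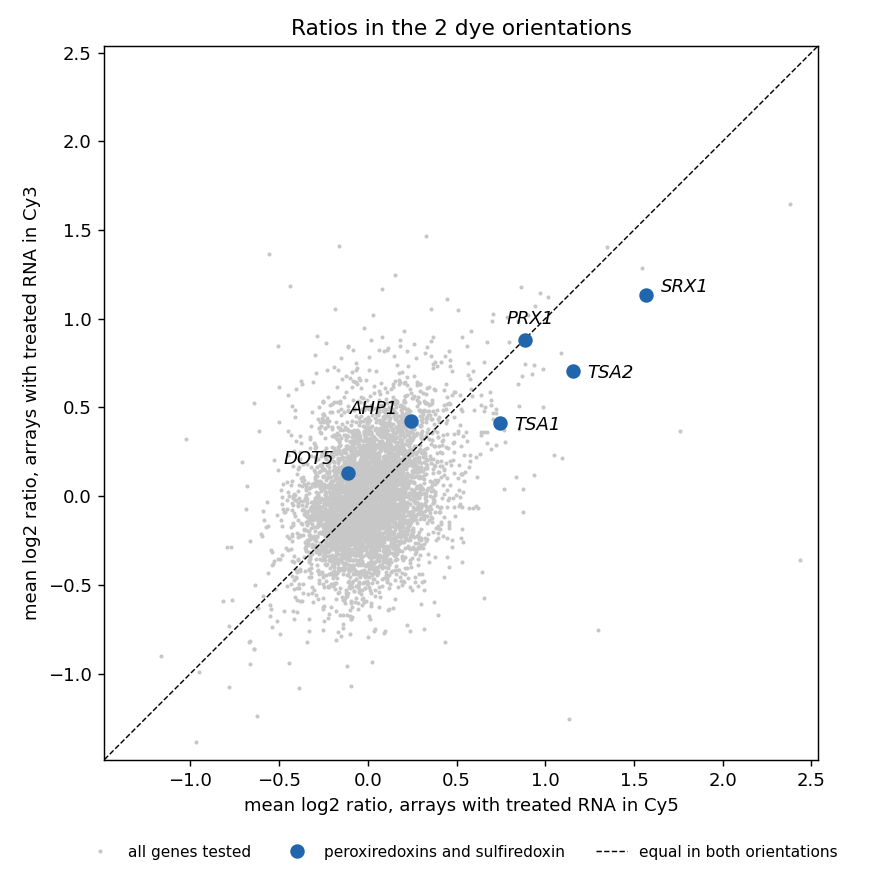
Mean log2 ratio on the arrays with treated RNA in Cy5 (horizontal axis) against that on the arrays with treated RNA in Cy3 (vertical axis), for all 5112 genes tested (grey) and the 6 family members (blue). SRX1 (1.57 and 1.13) and TSA2 (1.15 and 0.71) lie to the Cy5 side of the dashed line of equal ratios, and PRX1 lies on it at 0.88.

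The enzymes that hand electrons to the peroxiredoxins moved in both directions. Of 5 thioredoxin system genes tested, 2 were called higher, 1 lower and 2 were not called, against 2.07% higher and 0.959% lower of all genes tested. This list and those that follow were chosen with earlier results of these data known, so their counts are descriptions too. TRX2, a cytosolic thioredoxin, stood at 0.96 ± 0.20 (SD, n = 4) and TRR1, the cytosolic thioredoxin reductase, at 0.68 ± 0.21, both called higher. TRX1, the other cytosolic thioredoxin, was called lower, at -0.56 ± 0.16, with values from -0.70 to -0.42. The mitochondrial partners TRX3 and TRR2, at 0.20 ± 0.17 and 0.09 ± 0.14, were not called, while the mitochondrial PRX1 was. Without replicate 3, TRX2 was the only call left in this list.

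Prx1 is also reduced with the help of glutathione, and the 5 glutathione partners gave no call (0 by limma, and 0 at an unadjusted p under 0.05). Of all 5112 genes tested, 3.03% were called and 960 had an unadjusted p under 0.05 (limma). GSH1, of glutathione synthesis, was highest at 0.19 ± 0.30 (SD, n = 4) and GSH2, of the next step, lowest at -0.24 ± 0.36. Glutathione reductase GLR1 stood at -0.01 ± 0.16, and the glutaredoxins GRX2 and GRX1 at -0.05 ± 0.07 and -0.03 ± 0.06 (n = 3 for GRX1). The median of the list was -0.03, close to the -0.01 of all genes tested.

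Other peroxidases were split. Of 6 tested, 2 were called higher and 0 lower, against 2.07% and 0.959% of all genes tested. GPX2, a glutathione peroxidase homologue, stood at 1.06 ± 0.18 (SD, n = 4) and CCP1, the mitochondrial cytochrome c peroxidase, at 0.77 ± 0.18, both called higher, the call of CCP1 being lost without replicate 3. The catalases lay below 0 and were not called, with CTT1 of the cytosol at -0.32 ± 0.36 and CTA1 of the peroxisome at -0.28 ± 0.23. At an unadjusted p under 0.05 (limma) the list had 4 genes, both catalases among them, against 960 of all 5112 genes tested. HYR1, also known as GPX3, the peroxidase that senses peroxide for Yap1, was at -0.21 ± 0.13 and GPX1 at 0.14 ± 0.36 (n = 3). Their list of 6 had a median of -0.04, against 0.73 for the peroxiredoxin family. The family was selected on such means, so nothing is read from that contrast. The mean of GPX2 was above that of every peroxiredoxin gene, the highest being TSA2 at 0.93.

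Genes for the regulators showed no call. Yap1 and Skn7 are the transcription factors that act on many peroxide-responsive genes of yeast, TSA1, TRX2 and TRR1 among them, and Msn2 and Msn4 act on general stress genes. Of the 5 regulator genes tested, none was called, by limma with adjustment (0) or at an unadjusted p under 0.05 (0), with YAP1 at 0.12 ± 0.26, SKN7 at 0.14 ± 0.16, MSN2 at -0.15 ± 0.17 and MSN4 at -0.06 ± 0.27 (SD, n = 4 each) besides HYR1. Over all 5112 genes tested, the same counts were 155 and 960. YBP1, which Yap1 needs for its activation, had values on 2 arrays, -0.40 and -0.10, and was not tested. These are transcript ratios, and Yap1 is known to be controlled mainly by oxidation and its place in the cell.

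Among 11 genes known to be regulated by Yap1 outside the family, 5 were called higher and none lower, against 2.07% and 0.959% of all genes tested. They were GPX2, TRX2, CCP1, TRR1 and FLR1, a drug transporter at 0.75 ± 0.32 (SD, n = 4). The other 6 were not called: ATR1 at 0.27, YCF1 at 0.25, GSH1 at 0.19, OYE2 at 0.18, GLR1 at -0.01 and OYE3 at -0.19. The list's median was 0.27. Without replicate 3 its calls numbered 2, GPX2 and TRX2.

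Of 9 general stress genes regulated by Msn2 and Msn4, 6 could be tested and 0 were called by limma, against 3.03% of all genes tested. At an unadjusted p under 0.05 (limma) there were 2, HSP26 and CTT1, which lay on opposite sides of 0. Over all 5112 genes tested, 960 had such a p. The median of the 6 was 0.11. Of those 6, HSP26 was highest at 0.34 ± 0.36 (SD, n = 4), followed by SSA3 at 0.28 ± 0.53 and TSL1 at 0.16 ± 0.20 (n = 3). PGM2 at 0.05 ± 0.38, HSP12 at -0.08 ± 0.40 and CTT1 came after them. SSA3, an Hsp70 gene, was below 0 on replicate 1 (-0.46) and above 0 on the others, and was called without replicate 1. GRE1 and DDR2 had a value on 1 array each and GPH1 on 0 arrays, so these were not tested. The value of DDR2, 1.24 on replicate 2, was above the mean of every tested gene of the list, and that of GRE1 was 0.13 on replicate 3. Taken once each, the 6 lists named 34 genes, of which 30 were tested, 5 called higher and 1 lower, again beside 2.07% and 0.959% of all genes tested.

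**Figure D3:**
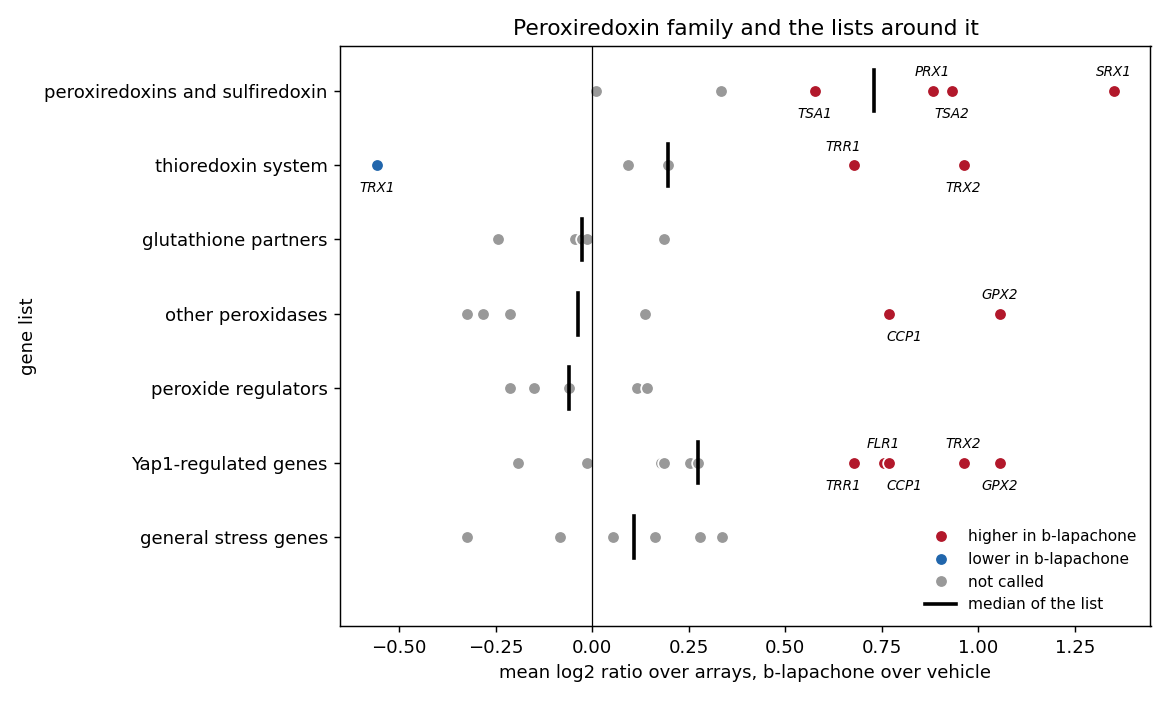
Mean log2 ratio of b-lapachone over vehicle (horizontal axis) for each tested gene of the family and of the 6 lists (rows); red points were called higher, blue lower and grey not called, and the black bar is the list's median. The family's median is 0.73 and the medians of the lists run from -0.06 to 0.27, with TRX1 the only gene called lower. The family was selected on these means.

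The genes whose ratios lay closest to a called member on the 4 arrays, among 4574 genes with 4 values, were found by Euclidean distance in log2 units, a description of likeness in size and pattern with no test. Closest to SRX1 were ARG1, the argininosuccinate synthase gene of arginine synthesis, at 0.529, ICT1, an acyltransferase gene, at 0.558, and TSA2 at 0.843. Few genes reached ratios as high as those of SRX1, so its neighbours are far off. PRX1 was closest to SPI1, a wall protein gene, at 0.301, to TRX2 at 0.308 and to CCP1, whose product is likewise mitochondrial, at 0.338. TSA2 was closest to NCA3 at 0.347, and then to CPA1 and CAR1, of arginine synthesis and breakdown, at 0.365 and 0.521. TSA1 was closest to YLL056C at 0.180, and then to MSS11, a transcription factor gene of filamentous growth, and VID24, of the breakdown of gluconeogenic enzymes, at 0.260 and 0.263.

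Of 12 genes immediately beside the members on the chromosome, 9 had values on 4 arrays, 2 had a value on 1 array (SEF1 and KIP1, beside PRX1) and 1 had none (PPN1, beside TSA2). Only those 9 were tested, and 1 of them was called, against 3.03% of all genes tested. It was YLR108C, higher at 0.49 ± 0.23 (SD, n = 4), which is transcribed away from AHP1 across their shared upstream region, whereas AHP1 itself was not called. CYT2, a haem lyase gene that shares the upstream region of SRX1 in the same divergent way, stood at 0.34 ± 0.26 and was not called. MDH1 on the other side of SRX1 was at 0.02 ± 0.22. The neighbours of TSA1, USA1 and YOX1, were at 0.05 ± 0.11 and -0.04 ± 0.39, and GUK1 beside TSA2 at -0.17 ± 0.43. DOT5 lies between TIR3 at -0.06 ± 0.15 and EST3, of telomerase, at -0.43 ± 0.35, and CCW12 beside AHP1 was at 0.08 ± 0.30, none of them called.

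Other processing that could move a mean left the family's ratios nearly where they were. For a gene with a value on every array, only centring, scaling, quantile normalization and array weights can do so. The dye coefficient, the filters and the robust prior leave such a mean unchanged by construction. Over 8 other settings of scaling, filters and variance the mean of SRX1 stayed between 1.35 and 1.39, that of TSA2 between 0.92 and 0.97, that of PRX1 between 0.83 and 0.89 and that of TSA1 between 0.56 and 0.61. With 1 replicate left out the ranges were 1.27 to 1.43 for SRX1, 0.85 to 1.03 for TSA2, 0.82 to 0.95 for PRX1 and 0.45 to 0.64 for TSA1. SRX1, TSA2 and PRX1 were called whichever replicate was left out, although without replicate 3 only 27 genes were called in all, or 0.528% of those tested. They were also called against a 1.2-fold change, where TSA1 was not. The family was selected on the means of these same arrays, so these calls are a description. Nothing is read from them against the calls over all genes.

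**Figure D4:**
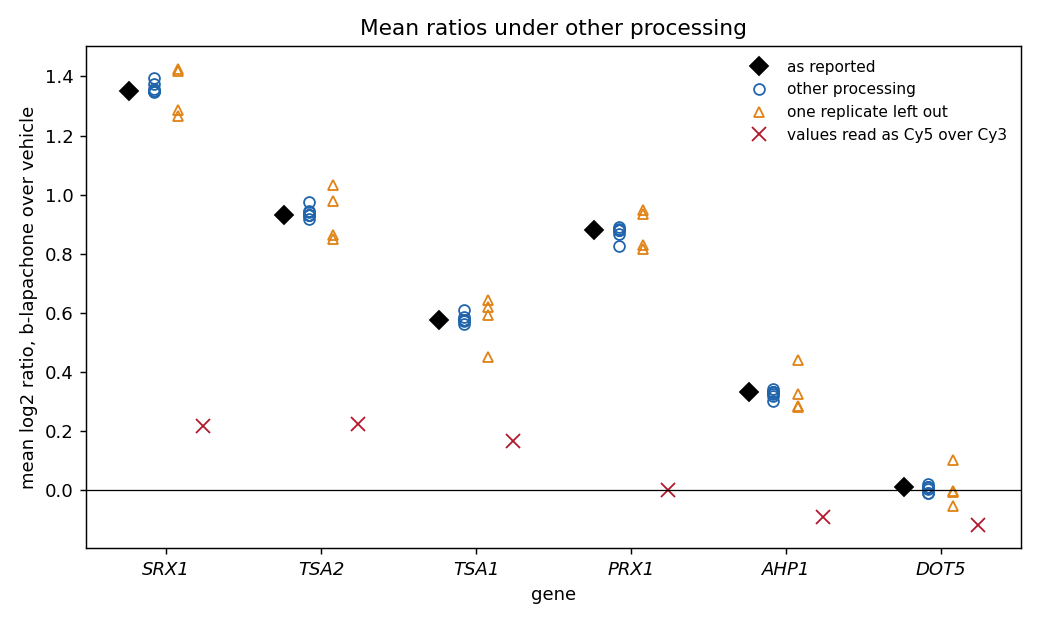
Mean log2 ratio of b-lapachone over vehicle (vertical axis) for each gene (horizontal axis) as reported (black), under 8 other processing settings (blue circles), with 1 replicate left out (orange triangles) and with the values read as Cy5 over Cy3 (red crosses). Of the processing settings, only centring, scaling, quantile normalization and array weights can move these means. SRX1 stays between 1.27 and 1.43 in the first 3 kinds and comes to 0.22 in the last.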

How the data were processed

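The authors deposited 1 log2 ratio per open reading frame and array, as read here; per the labels' protocols the RNA came from an acid-phenol extraction and was labelled indirectly. Scanner, background correction, normalization, log base, direction and genome build: not given in the sources used here. Column medians lay between -0.0227 and 0.0029; whether the authors centred them is not stated. Of 6211 reading frames, 5678 matched a locus tag or older name in the RefSeq R64 table, used for names and gene order only. Replicates 1 to 4 had 5176, 5534, 5179 and 4819 values; depth has no meaning for arrays, and their number limits the precision (median standard error 0.109).

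limma 3.58.1 (R 4.3.3) tested whether the mean ratio differed from 0 over 5112 genes with at least 3 values (Benjamini-Hochberg, threshold 0.05), with no further normalization, and a dye coefficient in a second fit; both were tested on simulated data. Genes named were the 6 members, the genes of 6 lists, the 3 nearest genes of each called member and the immediate chromosomal neighbours. Members and lists were chosen with earlier results of these data known. Alternatives were centred, scaled or quantile-normalized arrays, other filters, array weights, a robust prior, a 1.2-fold threshold, left-out replicates and, chosen after seeing the data, a Cy5-over-Cy3 reading. No promoter or protein sequence was used here.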

Additional observations from a re-analysis of the deposited data

Results flagged for a closer look

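Among 33 genes of the family and its lists with values on 4 arrays, 3 had an array far from the others by Dixon's test at the 95% level, all on replicate 1, and chance marks about 1 group in 20. The highest value of GPX2 was 1.32 on replicate 1, against 0.96 to 0.98 on the others. FLR1 had 1.22 there, against 0.53 to 0.64 on the others. YAP1 had 0.50 there, against -0.05 to 0.00 on the others. No member of the peroxiredoxin family was marked in this way.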

How the results depend on the processing

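No paired analysis was possible because the 4 arrays form 1 group and each already sets a treated culture against a vehicle culture. Calls over all genes, 155 as reported, numbered 274 with array weights, 28 against a 1.2-fold change and 27 to 179 with 1 replicate left out (27 without replicate 3, 67 without replicate 4). Calls in the family, 4 as reported, stayed at 4 or came to 3 in these settings, TSA1 being the gene lost; its mean ran from 0.45 to 0.64 with 1 replicate left out. The DOT5 mean of 0.0098 turned to -0.011 with scaled and -0.0093 with quantile-normalized arrays, and ran from -0.055 to 0.10 with 1 replicate left out. With 1 replicate left out, calls ran from 1 to 3 in the thioredoxin system, 1 to 2 in the other peroxidases, 2 to 5 in the Yap1-regulated genes and 0 to 1 in the general stress genes. Genes with a dye difference numbered 2, and 4 with scaled arrays. Read as Cy5 over Cy3, an alternative chosen after seeing the data, the table gave 1 call over all genes and 0 in the family, in the thioredoxin system, in the other peroxidases and in the Yap1-regulated genes. The means were then 0.22 for SRX1, 0.22 for TSA2, 0.17 for TSA1, 0.0011 for PRX1, -0.090 for AHP1 and -0.12 for DOT5. Which reading holds was not tested, and the causes of the other changes were not tested.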
